A study of Mus musculus with 6 samples.

Results

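Amino acid transporters of the kidney tubule were measured by nephron segment as the 43 genes, of 31053 genes in the matrices, whose symbols belong to the Slc1a, Slc3a, Slc7a, Slc36a and Slc38a families or are Slc6a18, Slc6a19, Slc6a20a or Slc6a20b. They were chosen by symbol alone, and a gene that was barely counted is still a member. Single-nucleus RNA sequencing was done on the kidney cortex of FVB/N mice. The 3 control libraries came from Klf4 fl/fl mice, whose Klf4 gene carries recombination sites and for which no Cre is named. The 3 knockout libraries came from Klf4 fl/fl mice that carry Podocin-Cre, a recombinase driven by a podocyte promoter. Podocytes are the filter cells of the glomerulus. The tubule cells described here are therefore not the cells in which the Cre is designed to act, and both groups carry the floxed allele. Age, sex, litter and batch are not given in the sources used here. Nothing in the labels says that a number shared by a control and a knockout library marks a pair.

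The proximal tubule recovers nearly all filtered amino acids. Carriers of the brush border, the surface that faces the urine, take them up with sodium, protons or by exchange, and carriers of the basolateral side release them to the blood. The tubule is divided along its length into the segments S1, S2 and S3, with high-capacity carriers early and high-affinity carriers late. Several carriers are pairs: Slc3a1 encodes the heavy subunit that brings Slc7a9 or Slc7a13 to the brush border, and Slc3a2 the heavy subunit of Slc7a7 and Slc7a8 on the basolateral side. Losses of Slc3a1 or Slc7a9 are the known causes of cystinuria, and those of Slc7a7 and Slc6a19 of lysinuric protein intolerance and Hartnup disorder.

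Raw counts of unique molecular identifiers (UMIs, each 1 captured RNA molecule) were summed per library and cell class and given as CPM, scaled to the UMIs of that class in that library. CPM is not divided by transcript length, so levels are compared below for 1 gene between classes or libraries and never between genes. Values are listed in the order of libraries 1, 2 and 3, and errors are SD over n = 3 libraries unless said otherwise. The classes were rebuilt from marker genes, and the transporters themselves were kept out of the clustering. S1 held 5568 nuclei, S2 held 4661 and S3 held 4286. Only 47 of the S1 nuclei came from control 2, so low and middle S1 values of that library rest on few UMIs. A cluster of 6628 nuclei with values between those of S2 and S3 markers was kept as a class of its own. The injured tubule class held 131 control and 2284 knockout nuclei. Proximal clusters that carried distal markers or high UMI counts per nucleus, and a small one of mitochondrial RNA, were set aside. They held 15.1 to 32.6% of the kept nuclei in control libraries and 11.1 to 18.6% in knockout libraries. Clusters with markers of more than 1 class, 8.14 to 17.8% of the nuclei per library, and clusters that could not be named, 0.542 to 8.64%, were also left out of the comparisons. All 6 S1 markers were highest in S1 in both groups, as were 6 of 7 S3 markers in S3, and the remaining one, Slc22a13, had 0 UMIs. S2 was weakly marked: Slc22a6 and Slc13a3 were highest there in both groups, Slc22a8 in controls only, while Fgf1 was highest in S3.

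Depth was uneven. Control 1 and knockout 1 held 16246 and 18272 kept nuclei against 3772 to 5779 in the other libraries. Their median mitochondrial share was 2.616% and 1.1227% of UMIs, against 0.086 to 0.1629% in the rest. Same-numbered libraries shared 132, 23 and 74 cell barcodes, or 0.601, 0.587 and 1.39% of the smaller library, and other pairs shared 5 to 36. Of these other pairs, those with control 1 or knockout 1 shared 0.489 to 0.689%, so the pair numbered 1 did not stand out. Those without them shared 0.0983 to 0.197%, less than the pairs numbered 2 and 3. Klf4 itself had 0 UMIs in podocyte nuclei of every control library and 3, 0 and 1 in the knockouts, which is too few counts to check the deletion.

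Of the 43 genes, 13 reached a mean of 100 CPM over the controls in at least 1 tubule class. Among these 13, 4 were highest in S1 of the 4 proximal classes and 6 were highest in S3. Another 7 genes had fewer than 30 UMIs in all nuclei together, among them Slc38a5 with 1 UMI, Slc38a8 with 3 and Slc7a10, the alanine, serine and cysteine exchanger of the brain, with 8. In the tests below, 25 genes passed the filter on low counts in at least 1 class and 18 passed it in none. Among the 18, Slc7a6 had 557 UMIs over all nuclei, Slc7a11 had 505, Slc36a4 had 495 and Slc7a5 had 344. Slc7a15 had 260, Slc7a12 had 249, Slc7a4 had 121, Slc38a4 had 93 and Slc38a11 had 92. Slc7a14 had 66, Slc1a7 had 64, Slc1a6 had 26, Slc36a3 had 24, Slc7a3 had 18 and Slc36a2 had 17. A level of a few UMIs in a class says little about these genes.

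**Figure D1:**
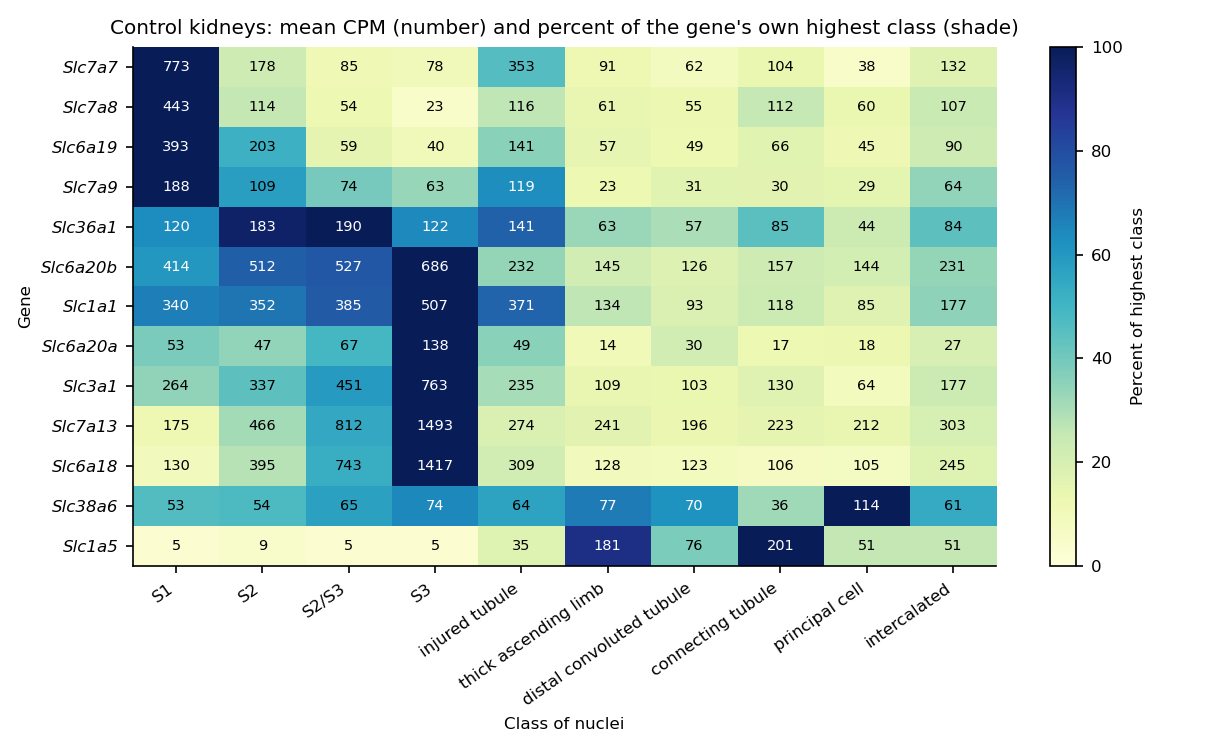
Heat map of the 13 genes that reached 100 CPM in controls, one row each, over 10 tubule classes. The number in a cell is the mean CPM of the control libraries, and the shade is that mean as a percent of the gene's own highest class. Slc7a7, Slc7a8, Slc6a19 and Slc7a9 are darkest in S1, Slc7a13, Slc6a18, Slc3a1, Slc1a1, Slc6a20a and Slc6a20b in S3, and Slc1a5 outside the proximal tubule.

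Start regions are shown for Slc3a1, Slc6a20a and Slc6a20b, because these are the 3 of the 13 genes whose libraries did not overlap between groups in S3. By the same rule 5 of the 19 transporters tested in S3 and 12.7% of all genes tested there did not overlap. Slc6a20a and Slc6a20b lie beside each other on chromosome 9. Each line gives the 250 bases before the RefSeq start on GRCm38.p6, 5′ to 3′ on the strand of the gene: chr17:85028097-85028346 on the plus strand for Slc3a1, chr9:123678833-123679082 on the minus strand for Slc6a20a and chr9:123632539-123632788 on the minus strand for Slc6a20b. Capitals mark matches on either strand to 4 motifs: GTTAAT, one side of the site of HNF1 factors, CAAAGTCCA, a site of HNF4 factors, TATAAA, the TATA box, and TGATGNAA, the site of amino acid shortage factors such as ATF4.
Slc3a1: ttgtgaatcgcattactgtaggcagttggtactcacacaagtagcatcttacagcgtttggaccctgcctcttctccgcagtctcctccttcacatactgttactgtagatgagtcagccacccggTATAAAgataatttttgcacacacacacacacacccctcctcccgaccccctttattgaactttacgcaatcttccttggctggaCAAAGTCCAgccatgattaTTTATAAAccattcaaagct
Slc6a20a: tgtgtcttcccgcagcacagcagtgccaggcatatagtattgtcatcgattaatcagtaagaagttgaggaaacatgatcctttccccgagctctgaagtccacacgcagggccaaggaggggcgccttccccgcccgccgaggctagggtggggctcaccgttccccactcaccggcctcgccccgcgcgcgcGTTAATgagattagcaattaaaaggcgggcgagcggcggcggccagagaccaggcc
Slc6a20b: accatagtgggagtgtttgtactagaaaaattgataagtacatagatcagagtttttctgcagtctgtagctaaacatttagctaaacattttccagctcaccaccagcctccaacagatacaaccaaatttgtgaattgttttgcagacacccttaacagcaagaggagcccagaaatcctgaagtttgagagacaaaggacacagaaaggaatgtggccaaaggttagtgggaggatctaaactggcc
The Slc3a1 window held CAAAGTCCA once and TATAAA on both strands, with 2 of the TATAAA matches overlapping. The Slc6a20a window held GTTAAT once, and the Slc6a20b window held none of the 4 motifs. RefSeq windows were at hand for 32 of the 43 genes, 42 windows in all. Slc3a1 was the only one of the 32 with CAAAGTCCA, which stood in 0.384% of all 32851 windows of this length. GTTAAT stood in windows of Slc6a20a, Slc7a7, Slc36a1 and Slc7a15 and in 6.432% of all windows. TATAAA stood in windows of 5 of the 32 genes and in 12.368% of all windows. TGATGNAA stood in windows of Slc7a7 and Slc7a11 and in 3.452% of all windows. These are matches of letters in a window, not measured sites.

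The basolateral exchangers were transcribed mainly in S1. Slc7a7, which trades cationic amino acids inside the cell for neutral ones and sodium, lies at chr14:54369442-54417780 on the minus strand of GRCm38. In S1 it stood at 1121, 738 and 459.6 CPM in controls and 913, 747 and 1338 in the knockouts. In S3 it stood at 112, 80.9 and 41.1 in controls and 102, 46.7 and 179 in the knockouts, so the S3 level was 0.101 of the S1 level in controls and 0.109 in knockouts. No S3 library reached any S1 library in either group. Part of Slc7a7 is overlapped by Oxa1l on the other strand, and whether counting used the strand is not given in the sources used here.

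Slc7a8, the neutral exchanger of the same side, had the steepest decline of the 13 genes. Its S1 levels were 604, 539.9 and 185 CPM in controls and 641, 365 and 559.9 in knockouts. In S3 it was at 30.6, 28.9 and 8.80 in controls and 28.5, 2.03 and 6.25 in knockouts, and the S3 level was 0.0514 of that in S1 in controls. Control 3 was low for both exchangers in S1, so the spread between the control libraries was wider than the difference between the group means, 773 ± 332 against 999 ± 305 CPM for Slc7a7. Slc3a2, the heavy subunit of both, stood at 58.0 ± 44.99 CPM in control S1 and 31.6 ± 19.7 in control S3, with overlapping libraries.

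Brush border carriers divided by segment. Slc6a19, the sodium-driven carrier of neutral amino acids, stood at 426, 432 and 322 CPM in control S1, 183, 251 and 174 in S2 and 73.2, 23.1 and 23.5 in S3. The 3 ranges did not overlap, and S3 held 0.101 of the S1 level. Slc7a9, the light subunit for cystine and cationic amino acids, stood at 199, 198 and 166 CPM in control S1 and 48.4, 92.4 and 46.9 in S3. Its heavy subunit Slc3a1 ran the other way, from 339, 180.0 and 272 CPM in control S1 to 791, 745 and 754 in S3, a ratio of 2.89. The 2 genes of the pair were thus highest at opposite ends of the segment axis, each with no overlap between S1 and S3 libraries in controls.

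Slc7a13, the other light subunit that pairs with Slc3a1 and carries cystine and acidic amino acids, was an S3 gene. It lies at chr4:19818725-19842218 on the plus strand. Control levels were 323, 126 and 77.5 CPM in S1, 773, 370.1 and 254 in S2, 1074, 828 and 533 in the class between S2 and S3 and 1931, 1080.3 and 1467 in S3. In every control library the level was higher in each of these classes than in the one before. The ratio of S3 to S1 was 8.51 in controls, from 5.98 to 18.9 by library, and 22.2 in knockouts. Slc6a18, a carrier of glycine and alanine, had the same order: 131, 162 and 96.3 CPM in control S1 and 1141, 1589 and 1523 in control S3, a ratio of 10.9. Slc6a18 and Slc6a19 lie beside each other on chromosome 13, at 73661752 to 73678023 and 73679745 to 73704865, both on the minus strand, and were highest in S3 and in S1.

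Slc1a1, the carrier of glutamate and aspartate, had a shallow slope, with 299, 306 and 414 CPM in control S1 and 507, 491 and 522 in S3, and a ratio of 1.49. Slc6a20a and Slc6a20b, the carriers of proline and other imino acids, had ratios of 2.60 and 1.66 in controls. Their coding sequences were 91.5% identical over 1779 aligned bases, against 54.0 to 62.6% for the other pairs compared among Slc6a18, Slc6a19, Slc6a20a, Slc6a20b, Slc7a12 and Slc7a13, so reads may have been assigned uncertainly between these 2 genes. Slc36a1, a proton-coupled carrier, had overlapping libraries in S1 and S3, with control means of 120.2 ± 62.8 CPM in S1, 183 ± 37.2 in S2 and 122 ± 41.6 in S3. Slc38a3, the glutamine carrier of ammonia production, stood at 88.1, 63.5 and 109 CPM in control S3 and at 7.003, 0 and 4.19 in control S1.

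**Figure D2:**
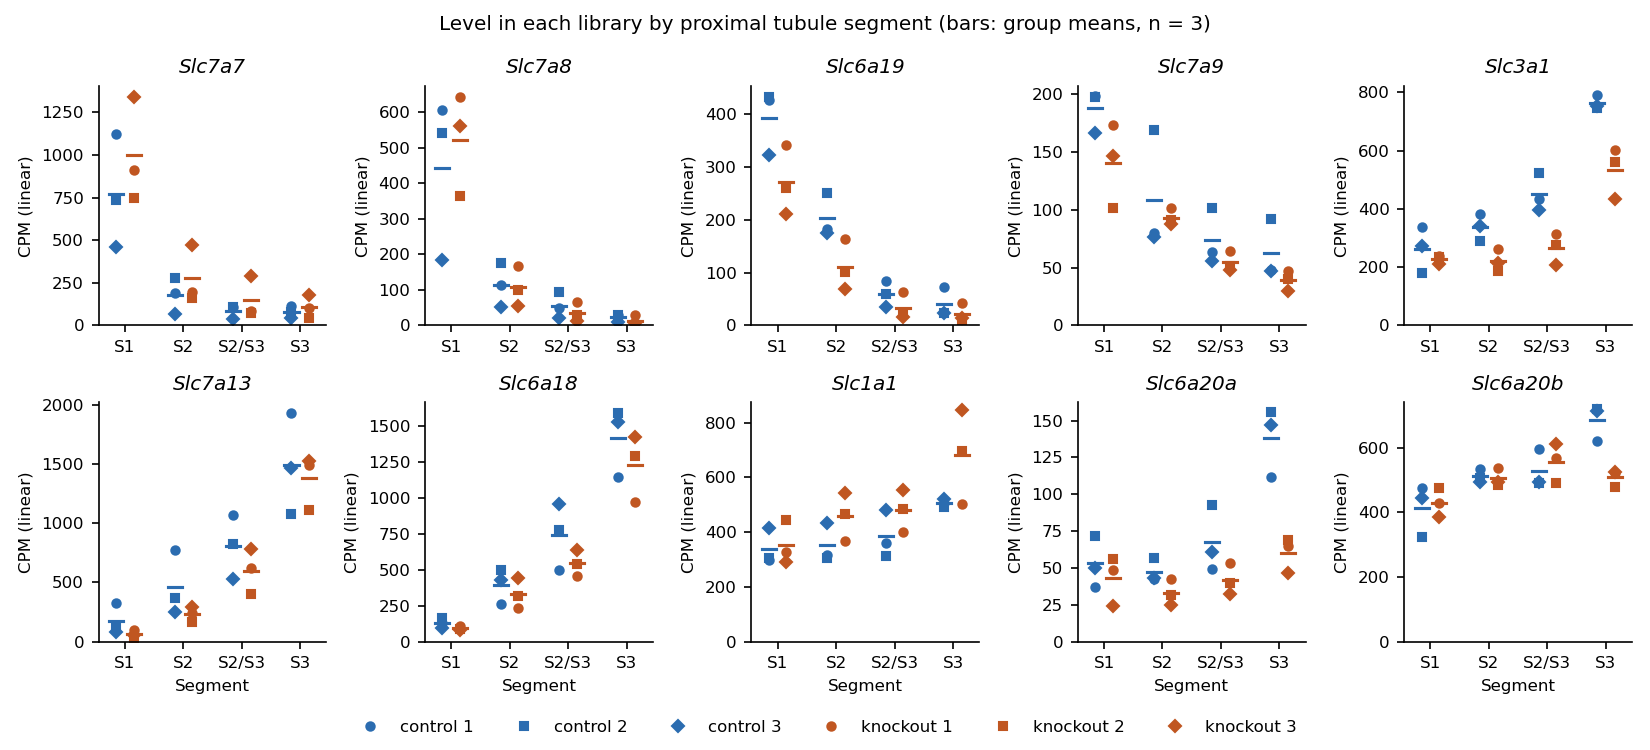
Level in CPM of 10 brush border and basolateral carriers in S1, S2, the class between S2 and S3, and S3, with 1 point per library, controls and knockouts in separate colours. Slc7a7, Slc7a8, Slc6a19 and Slc7a9 decline from S1 to S3, and Slc7a13, Slc6a18 and Slc3a1 climb, in both groups.

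The comparison of knockout with control asks what loss of Klf4 from podocytes is accompanied by in the tubule. In edgeR's quasi-likelihood test with Benjamini-Hochberg adjustment over all genes of a class, no transporter had an adjusted p under 0.05 in any of the 10 tubule classes. All differences given from here on are values that did not pass this test, unless a call is named. DESeq2 called no transporter either, except Slc7a13 in intercalated cells, as 1 of 18 beside 13 of 5629 genes. In the proximal classes the 3 control and 3 knockout libraries did not overlap for 0 of 18 transporters in S1 (beside 10.2% of all genes tested), 4 of 19 in S2 (12.6%), 4 of 19 between S2 and S3 (11.8%) and 5 of 19 in S3 (12.7%). In the distal classes they did not overlap for 2 of 19 in the thick ascending limb (9.55%), 1 of 16 in the distal convoluted tubule (10.8%), 2 of 11 in the connecting tubule (12.8%), 0 of 8 in principal cells (11.8%) and 5 of 18 in intercalated cells (11.7%). In injured tubule, with 2 controls, they did not overlap for 10 of 21 (34.7%).

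In S1, 0 of 18 transporters tested were called, and 0.0% of the 7420 genes tested were. At an unadjusted p under 0.05 there was 1 transporter, beside 4.06% of all genes. It was Slc7a13, at 323, 126 and 77.5 CPM in controls and 96.7, 31.6 and 58.0 in the knockouts. Control 1 was far above the other 5 libraries, which overlapped between groups. The fitted log2 difference, knockout over control, was -1.55 ± 0.55 (SE, adjusted p = 1), and -0.32 without control 1. With the replicate number as a block, Slc7a13 was called in S1, as 1 of 18 transporters beside 36 of 7420 genes. The next smallest p was that of Slc6a19, at 426, 432 and 322 against 341, 259.6 and 212 CPM, a log2 difference of -0.53 ± 0.26 (adjusted p = 1). Knockouts 2 and 3 were below every control for this gene, and knockout 1 lay within the control range.

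In S2, 0 of 19 were called, beside 0.0118% of all genes, and 4 of 19 had an unadjusted p under 0.05, beside 6.75%. With the replicate number as a block, 0 of 19 were called beside 0.423%. Slc3a1 stood at 381, 289 and 343 CPM in controls and 263, 188 and 215 in knockouts, with no overlap and a log2 difference of -0.64 ± 0.22 (adjusted p = 0.667). Slc6a19 stood at 183, 251 and 174 against 163, 101 and 69.0 CPM, also without overlap, at -0.82 ± 0.30 (adjusted p = 0.693). Slc7a13 differed by -1.06 ± 0.40 (adjusted p = 0.695), again led by control 1, without which the value was -0.36. Slc7a2, a carrier of arginine and lysine, was low at 0.856, 12.54 and 1.72 against 6.84, 11.9 and 11.1 CPM, and its fitted log2 difference of 2.33 ± 0.83 rests on few counts.

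In the class between S2 and S3, 0 of 19 were called, beside 0.0211% of all genes, and 3 of 19 had an unadjusted p under 0.05, beside 5.39%. With the block, 0 of 19 were called beside 0.295%. Slc3a1 was lower in all knockout libraries, at 433, 524 and 395 against 313, 275 and 209 CPM and a log2 difference of -0.73 ± 0.22 (adjusted p = 0.673). Slc38a3 was lower in all of them too, at 13.9, 33.8 and 16.2 against 8.43, 7.91 and 7.65 CPM (adjusted p = 0.879). Slc38a2, a sodium-driven carrier of small neutral amino acids that cells are known to induce under amino acid shortage, was higher in all of them, at 12.3, 8.45 and 4.62 against 21.7, 17.8 and 19.1 CPM (adjusted p = 0.879).

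Of the 4 proximal classes, S3 held the smallest p, that of Slc6a20a, a carrier of proline. In S3, 0 of 19 transporters were called, beside 0.0672% of all genes, and 5 of 19 had an unadjusted p under 0.05, beside 6.66%. With the block, 0 of 19 were called beside 0.188%. Slc6a20a stood at 112, 155.97 and 147 CPM in controls and 65.2, 69.0 and 46.3 in the knockouts, or 138 ± 23.3 against 60.2 ± 12.2. Every knockout library was below every control library. The log2 difference was -1.15 ± 0.25 with an adjusted p of 0.283 in edgeR's quasi-likelihood test. The antisense transcripts Gm17120 and Gm17200 and the gene Ccr9 overlap Slc6a20a on the other strand. The same holds for Sacm1l with Slc6a20b, Prepl with Slc3a1, Slc6a19os with Slc6a19 and 4430402I18Rik with Slc1a1. Slc6a20b, its near copy, stood at 622, 722 and 713 against 522, 479 and 526 CPM, without overlap, at -0.41 ± 0.18 (adjusted p = 0.744). In the knockouts its highest proximal class was the one between S2 and S3, at 557 ± 61.5 CPM against 509 ± 26.1 in S3.

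Slc3a1 in S3 stood at 791, 745 and 754 CPM in controls, within a narrow range, and at 602, 563 and 433 in knockouts. The groups did not overlap, and the log2 difference was -0.51 ± 0.21 (adjusted p = 0.71). Its S3 partner Slc7a13 stood at 1931, 1080.3 and 1467 against 1494, 1117 and 1530.2 CPM with overlapping libraries, 1493 ± 426 against 1380.3 ± 229, and a log2 difference of -0.12 ± 0.27 (adjusted p = 0.973). Slc6a18, the other strongly S3-weighted gene, stood at 1417 ± 242 against 1227 ± 233 CPM and differed by -0.19 ± 0.22. Slc1a1 differed by 0.44 ± 0.23, upward, at 507, 491 and 522 against 504, 697 and 848 CPM, with knockouts 2 and 3 above every control.

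Slc38a2 and Slc1a4, carriers of neutral amino acids, had higher values in knockout S3. Slc38a2 stood at 31.3, 17.3 and 8.80 CPM in controls and 39.2, 63.0 and 52.5 in knockouts, without overlap, at 1.076 ± 0.41 (adjusted p = 0.677), and at 2.11 without control 1. Slc1a4, an exchanger of alanine, serine and cysteine, stood at 47.2, 34.7 and 67.5 against 51.4, 93.4 and 151.3 CPM, where knockout 1 lay within the control range, at 0.93 ± 0.40 (adjusted p = 0.727), and at 0.47 without knockout 3. Slc38a10, a little-studied relative of Slc38a2, stood at 42.1, 63.5 and 35.2 against 33.1, 32.5 and 20.0 CPM, without overlap, at -0.63 ± 0.33 (adjusted p = 0.753). Slc38a7, a lysosomal carrier of glutamine and asparagine, differed by 0.28 ± 0.38 (adjusted p = 0.921). Over the 19 transporters tested in S3, 6 values were above 0 and 13 below, with a median log2 difference of -0.19 beside -0.0061 over all genes. The same median was -0.0093 in S1, -0.0040 in S2 and -0.27 between S2 and S3. The 12 proximal tubule reference genes that are no members had a median of -0.46 in S3, with 9 of 12 lower, and 0.02 in S1. Among these 12 are the S1 markers Slc5a12, Slc4a4 and Gatm, the S2 markers Slc22a6 and Slc13a3 and the S3 marker Slc27a2. Their median in S3 is therefore not that of S3 genes alone. Whether the lower reference genes have a part in the lower transporter values was not tested.

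Differences between segments were tested in 1 fit over S1, S2 and S3 with the library as a term. None of 20 transporters was called for S2 minus S1, S3 minus S1 or S3 minus S2, beside 0, 0 and 0.0618% of 9714 genes. At an unadjusted p under 0.05 there were 1, 4 and 2 transporters, beside 201, 514 and 421 of the 9714 genes. The smallest p was that of Slc6a20a, whose log2 difference was lower in S3 than in S1 by an interaction of -0.9997 ± 0.26 (SE, adjusted p = 0.23 in edgeR's quasi-likelihood test). Next was Slc7a13, whose knockout difference was less negative in S3 than in S1 by 1.078 ± 0.32 (adjusted p = 0.457). Without control 3 its adjusted p was 0.00292 with a value of 1.65, as 1 of 21 transporters called beside 16 of 10216 genes. Without knockout 1 the adjusted p was 0.0476 with 1.71, as 1 of 20 called beside 70 of 8379 genes. Without control 1 the value was 0.32 (adjusted p = 0.973). For S3 minus S2 it was 0.79 ± 0.27 (adjusted p = 0.73), and 1.20 without control 3 (adjusted p = 0.0169) but 0.47 without control 1 (adjusted p = 1). The call without control 3 was 1 of 21 transporters beside 13 of 10216 genes. Slc38a3 gave 2.17 ± 0.79 for S3 minus S1 (adjusted p = 0.662), with S1 levels close to 0. It ranged from 1.30 without control 1 to 6.37 without knockout 1.

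**Figure D3:**
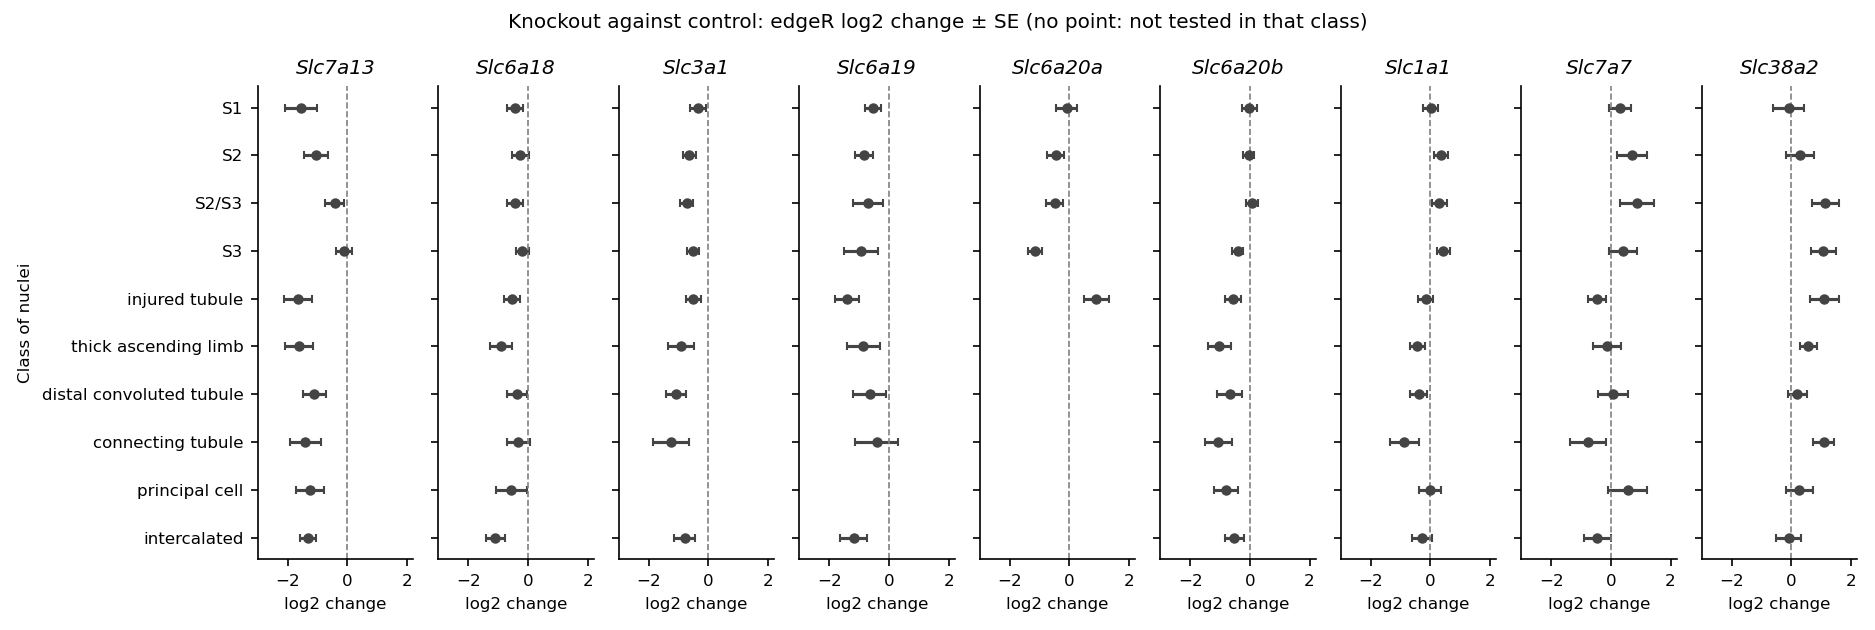
Fitted log2 difference, knockout over control, of 9 transporters in 10 tubule classes, with bars of 1 SE from edgeR. Slc6a20a lies at -1.15 in S3, Slc7a13 is near 0 in S3 at -0.12 and below it in the other classes, and Slc38a2 lies above 0 in S3, in injured tubule and in connecting tubule.

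Injured tubule nuclei came almost wholly from knockouts. The class was named by markers such as Havcr1 and Vcam1. It held 1660, 358 and 266 nuclei in knockouts 1, 2 and 3 and 108, 6 and 17 in the controls, so control 2 was not used and the test had 2 controls against 3 knockouts. The nuclei were unlike in the 2 groups: Havcr1 had a mean of 49.4 CPM in the control and 356 CPM in the knockout nuclei of this class, and Vcam1 27.2 and 369 CPM. The proximal reference genes were lower in knockout nuclei for 11 of 12, with a median log2 difference of -0.88. The part of either in the transporter values was not tested. Within each knockout library, 2 of the 43 transporters were below their levels in S1, S2 and S3 alike in all 3 libraries, and 6 were above. Among the 13 genes that reached 100 CPM in controls, 2 were below and 2 were above. A gene without counts in a segment cannot be below its level there, so not all 43 could be counted as lower. No share over all genes is given beside these counts. They describe nuclei of the same libraries and have no test.

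The 2 lower genes were brush border genes. Slc3a1 stood at 161.4, 159.8 and 175 CPM in injured tubule of the knockouts, against 602, 563 and 433 in their S3 and 239, 235 and 212 in their S1. Slc6a20b stood at 174, 155.5 and 162 CPM, against 522, 479 and 526 in S3 and 429, 477 and 386 in S1. The 6 higher genes included Slc6a20a, which in injured tubule stood at 111, 93.7 and 148 CPM against 65.2, 69.0 and 46.3 in S3, so the near copies Slc6a20a and Slc6a20b stood on opposite sides of their segment levels. Slc38a2 stood at 92.0, 66.0 and 117 CPM in injured tubule against 39.2, 63.0 and 52.5 in S3. Slc7a1, the general carrier of cationic amino acids, stood at 38.2, 17.0 and 44.9 against 4.58, 2.03 and 42.5 CPM. Slc1a5, the glutamine carrier of growing cells, stood at 24.6, 14.9 and 6.73 against 8.65, 8.12 and 6.25 CPM, and Slc7a6, an exchanger of cationic and neutral amino acids, at 8.33, 6.39 and 13.5 against 1.53, 0 and 0. The margins were small for Slc38a2 in knockout 2 and for Slc7a1 and Slc1a5 in knockout 3.

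The remaining one of the 6 was Slc1a2, the glutamate carrier known best from astrocytes. It stood at 29.2, 12.8 and 31.4 CPM in injured tubule of the knockouts, 16.5, 3.51 and 6.83 in their S1 and 1.53, 0 and 0 in their S3. It had 0 UMIs in the injured nuclei of both controls, whose 236045 UMIs allow a level of up to 12.7 CPM at 3 counts over the group. The 104 knockout UMIs, 27.4 CPM over the group, were 2.16-fold above that level. This figure pools the libraries of a group and covers counting error only. Slc1a2 passed the low-count filter in this class alone, through its knockout counts, and was not called between groups. Strongly graded genes lay between the S1 and S3 levels of the same library: in injured tubule Slc7a13 was at 126, 57.5 and 144 CPM, Slc6a18 at 158, 196 and 251 and Slc7a7 at 209, 268 and 355.

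**Figure D4:**
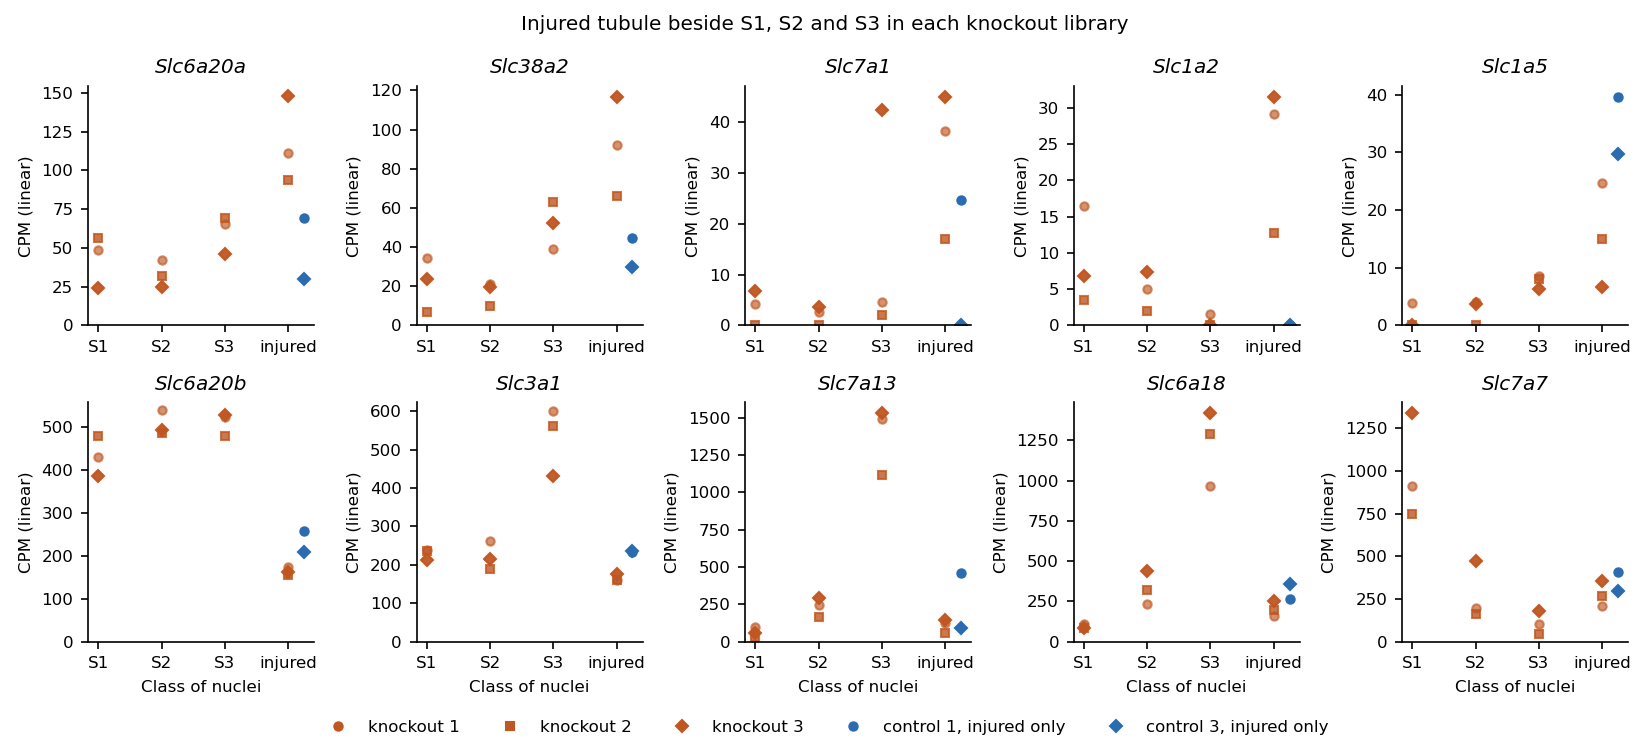
Level in CPM of 10 transporters in injured tubule beside S1, S2 and S3 of the same library, for the 3 knockouts, with the injured class of controls 1 and 3. Slc6a20a, Slc38a2, Slc7a1, Slc1a2 and Slc1a5 are highest in injured tubule in each knockout library, and Slc6a20b and Slc3a1 are lowest there.

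Between groups within injured tubule, 0 of 21 transporters were called, beside 0.165% of 7267 genes, and 4 of 21 had an unadjusted p under 0.05, beside 12.7%. Slc7a13 stood at 459.6 and 89.0 CPM in controls 1 and 3 and 126, 57.5 and 144 in the knockouts, at -1.66 ± 0.48 (adjusted p = 0.201). This value rested on control 1: without it the sign turned, at 0.69, and without control 3 the value was -2.11. Each of these fits without a control has 1 control library against 3 knockouts. The lone library is assumed to vary like the knockouts, so no call is read from these fits. Slc6a19 stood at 193 and 89.0 against 77.1, 63.9 and 40.4 CPM, at -1.40 ± 0.41 (adjusted p = 0.208). It was called without knockout 1 (adjusted p = 0.0431 in edgeR's quasi-likelihood test), as 1 of 17 transporters beside 124 of 5450 genes. Without control 1 the value was -0.11. Slc38a2 stood at 44.5 and 29.7 against 92.0, 66.0 and 117 CPM, without overlap, at 1.10 ± 0.48 (adjusted p = 0.378). In control 3 of this class, 29.7 CPM was the smallest value above 0 of any transporter. Its values of 29.7 and 89.0 CPM thus rest on very few UMIs, as do the fits in which it is the only control.

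Beyond the proximal tubule, transporter UMIs came with other proximal tubule RNA, and this was measured first. The 12 proximal tubule reference genes, such as Lrp2 and Cubn, the receptors of protein uptake, stood in the 5 distal classes at 15.1 to 65.0% of their proximal level in control libraries and 9.32 to 38.4% in knockout libraries. Podocyte nuclei held 14.6 to 38.3% and 7.07 to 23.7%. In every distal class the reference genes were lower in knockouts on the median, by -0.98 on the log2 scale in the thick ascending limb and -0.72 in intercalated cells. A transporter's expected level was computed per library as that share times its own proximal level.

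Slc7a13 stood at 0.671 to 1.004 of these expected levels over the 5 distal classes and both groups, Slc6a20b at 0.722 to 1.01, Slc3a1 at 0.448 to 1.084 and Slc1a1 at 0.559 to 1.17. In intercalated cells, the acid- and base-secreting cells of the collecting system, Slc7a13 stood at 394, 263 and 251 CPM in controls and 144, 129 and 99.6 in the knockouts, without overlap, and the expected means were 356 and 185. The log2 difference was -1.33 ± 0.27 with an adjusted p of 0.435. DESeq2 called it at an adjusted p of 0.0469, as 1 of 18 transporters beside 13 of 5629 genes. With the replicate number as a block, edgeR's quasi-likelihood test called it at 0.0396, as 1 of 18 transporters beside 0.142% of all genes. In the thick ascending limb it stood at 359, 242 and 122 against 127, 39.5 and 68.5 CPM, where control 3 came below knockout 1, at -1.61 ± 0.47 (adjusted p = 0.839, and 0.0484 with the block, as 1 of 19 beside 0.281%). Expected means there were 251 and 103 CPM. Podocytes, which are outside the tubule, showed Slc7a13 at 355, 286 and 63.6 CPM in controls and 93.3, 33.1 and 47.6 in knockouts.

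Without the block, edgeR called no transporter in the distal classes. The thick ascending limb had 0 of 19, beside 0.0% of all genes, with 4 at an unadjusted p under 0.05, beside 5.12%. The distal convoluted tubule had 0 of 16, beside 0.0%, with 2 unadjusted, beside 5.42%. The connecting tubule had 0 of 11, beside 0.0%, with 3 unadjusted, beside 7.24%. Principal cells had 0 of 8, beside 0.0%, with 1 unadjusted, beside 6.69%. Intercalated cells had 0 of 18, beside 0.0178%, with 4 unadjusted, beside 6.18%. Slc7a13 was among those with an unadjusted p under 0.05 in all 5 classes, always lower in knockouts. Slc3a1 in the distal convoluted tubule stood at 122, 114 and 73.8 against 54.7, 61.0 and 37.0 CPM, at -1.09 ± 0.34 (adjusted p = 0.727), with expected means of 125 and 47.7. Slc6a18 in intercalated cells stood at 135, 283 and 315 against 112, 159 and 86.6 CPM, at -1.09 ± 0.33 (adjusted p = 0.687), and its expected means were 369.9 and 182. In principal cells Slc7a13 differed by -1.25 ± 0.48 (adjusted p = 0.679), with -0.60 without control 1 and -1.89 without knockout 1. Slc6a20b differed there by -0.81 ± 0.41 (adjusted p = 0.771), with -1.33 without knockout 1. The part of free proximal RNA in these differences was not tested beyond the expected levels given.

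Other transporters stood far above their expected levels. Slc1a5 in the thick ascending limb stood at 200.3, 170.1 and 174 CPM in controls and 128, 89.8 and 71.5 in knockouts, against expected means of 2.43 and 0.722. Every knockout library was below every control library, at -0.93 ± 0.27 (adjusted p = 0.839). In the connecting tubule Slc1a5 stood at 185, 140.0 and 278 against 146, 150.03 and 165 CPM and in the distal convoluted tubule at 99.5, 40.8 and 88.6 against 96.2, 171 and 111, with overlap in both. Slc38a2 in the connecting tubule stood at 49.1, 53.8 and 58.1 against 131, 107 and 82.6 CPM, without overlap, at 1.09 ± 0.35 (adjusted p = 0.594), and its expected means were 6.39 and 4.40.

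Slc38a1, a glutamine carrier related to Slc38a2, stood at 26.8, 13.1 and 15.2 CPM in the thick ascending limb of controls and 34.1, 28.7 and 38.7 in knockouts, and at 0.0951 ± 0.165 CPM in control S2. Slc1a3, a glutamate carrier, stood at 37.8, 42.5 and 57.9 against 37.9, 39.5 and 35.8 CPM in the thick ascending limb and 20.3, 3.99 and 5.17 against 1.497, 0 and 4.33 in intercalated cells. Slc38a6, an amino acid carrier of less settled function, was highest in principal cells, at 119, 88.8 and 134 CPM in controls and 123.2, 124 and 80.1 in knockouts, with overlap. Slc7a8 exceeded its expected level in the connecting tubule, at 112 ± 41.1 CPM in controls against 45.6 expected and 121 ± 39.8 in knockouts against 24.8. Slc38a9, a lysosomal sensor of arginine, stood in all 10 classes at control means from 56.2 to 93.6 CPM.

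Summed over the 43 genes, S3 held 5755 ± 220 CPM in controls and 5175 ± 491 in knockouts, and the knockout with the most, number 3, came within the control range. Intercalated cells held 2177 ± 118 against 1602 ± 256, of which 488 ± 184 and 607 ± 64.0 were left after the expected proximal RNA was subtracted. The thick ascending limb held 1731 ± 360 against 1266 ± 304, of which 635 ± 118 and 706 ± 26.6 were left. The order of the group means was thus turned by the subtraction in both classes.

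Genes that work with the transporters were counted from lists. No gene of any list was called in S1, S2 or S3. Of 24 genes of amino acid metabolism tested in S3, 8 were above 0 and 16 below, with a median log2 difference of -0.26 beside -0.0061 over all genes. The smallest p values were those of Pck1, which makes glucose from glutamine carbon, at -0.85 ± 0.24 in S3 (adjusted p = 0.456), and Ass1, an enzyme of arginine synthesis, at -0.75 ± 0.21 in S2 (adjusted p = 0.571). Of 10 brush border peptidases in S3, 8 were below 0, with a median of -0.35, while in S1 4 of 7 were above 0, with a median of 0.02. Mme, which encodes neprilysin, differed by -1.60 ± 0.30 in S3 (adjusted p = 0.23) and Anpep, aminopeptidase N, by -0.61 ± 0.34 (adjusted p = 0.772). Of 12 partner and other amino acid transporters in S3, 7 were below 0, with a median of -0.15. Slc43a2 differed by -1.04 ± 0.35 in S3 (adjusted p = 0.615) and Slc6a13 by -0.91 ± 0.33 in S1 (adjusted p = 1).

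Genes of the response to amino acid shortage gave no common direction, with 3 of 6 above 0 in S3 and a median of 0.02. Psat1, an enzyme of serine synthesis, differed by 2.01 ± 0.54 in S1 (adjusted p = 0.867), and Eif2ak3, a stress kinase, by 0.69 ± 0.29 in S3 (adjusted p = 0.718). Of 9 proximal tubule transcription factors in S3, 6 were below 0, with a median of -0.06. Ppara, the fatty acid receptor, differed by -0.72 ± 0.24 (adjusted p = 0.615) and Maf by -1.07 ± 0.38 (adjusted p = 0.645). Of 7 proximal genes known to depend on sex, 4 were above 0 in S3, with a median of 0.08, but 1 was in S1 and 2 were in S2, with medians of -0.29 and -0.69. Acsm3 differed by 1.73 ± 0.38 (adjusted p = 0.304) there and Cyp4b1 by -0.90 ± 0.26 in S2 (adjusted p = 0.571). Of 4 sex-linked genes tested in S3, 3 were above 0, with a median of 0.17 and Kdm5d at 0.70 ± 0.30 (adjusted p = 0.718).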

How the data were processed

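Raw UMI counts per gene and barcode of 6 libraries were the authors' deposited values. Cell Ranger, Seurat and build mm10 are named in the submitters' processing notes without their order, and the file headers give software version 3.1.0. The annotation release, strand use and method of barcode selection are not given in the sources used here. As no deposited cell type annotation was used, classes were rebuilt and may differ from the study's.

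Barcodes were kept with 300 or more genes and no more than 5% mitochondrial UMIs. Those with the highest doublet scores were removed, at most 0.8% for each 1000 barcodes of a library. The 3000 clustering genes held none of the transporters. Proximal nuclei were clustered apart (leidenalg 0.10.2, Python 3.11.15), and classes were named from marker lists. The transporters, markers and gene lists were chosen with earlier results of these data known, and the list of proximal genes that are no members served as the reference for free RNA. Positions of genes come from the GENCODE annotation of GRCm38.

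Counts were summed per library and class with at least 10 nuclei and compared with edgeR 4.0.16 (quasi-likelihood, TMM scaling, low-count filter by group, R 4.3.3), called at a Benjamini-Hochberg adjusted p under 0.05. The test was checked on simulated data. The fit between segments used S1, S2 and S3 with library as a term. P-values measure the spread between libraries. The total UMIs of 8270961 to 62016616 per library set the precision: 3 counts over a group equal 0.567 CPM in control S1 and 12.7 CPM in control injured tubule. These limits pool the libraries of a group and cover counting error only. They do not hold for a single library. In S1, control 2 held 55568 UMIs, against 4283781 in control 1 and 955220 in control 3, so its S1 values are far coarser than the pooled limit.

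Alternatives were DESeq2 1.42.0, DESeq2 size factors, no filter, the replicate number as a block, each library left out, both libraries numbered 1 left out, doublets kept and finer proximal clusters. Chosen after seeing the data were the removal of barcodes found in 2 or more libraries and the class between S2 and S3. The correlation of deviations between same-numbered libraries was over 0.1 for every number in 5 of 9 classes (S2, between S2 and S3, S3, thick ascending limb and intercalated), and from 0.0613 to 0.532 over all. In 0 of the 9 classes did every library correlate best with its own number. In S3, control 3 had 0.209 with knockout 2 and 0.155 with knockout 3. The pairing comes from the numbers in the labels and this check alone.

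The rule named transporters of at least 100 CPM in control tubule, called ones, and those with the smallest p per class and contrast, with up to 2 genes per list. Other members, and the injured tubule values, were named after their values were seen.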

Additional observations from a re-analysis of the deposited data

Results flagged for a closer look

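Slc7a12, an amino acid carrier close in family to Slc7a13, appeared in a cluster of 52 nuclei that no class of the comparisons holds. The cluster was picked as the one with the highest Slc7a12 CPM, so its level above that elsewhere follows from the choice. All 52 nuclei came from knockouts, 34, 7 and 11 from libraries 1, 2 and 3. They held 13 Slc7a12 UMIs, in 5 nuclei (9.62%), or 105 CPM. By library these were 3, 8 and 2 UMIs, and the 8 of knockout 2 lay in 2 nuclei. Elsewhere Slc7a12 had 236 UMIs, in 167 of 53933 nuclei (0.31%), or 2.23 CPM, at a median of 1596 UMIs per nucleus against 2297 in the cluster. In podocytes, 0 of 587 nuclei had it, and in S3, 28 of 4286. The cluster held no control nucleus, so no comparison between groups can be made for it.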

How the results depend on the processing

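Over 475 alternatives of 37 named pairs of transporter and class or contrast, 453 kept the direction and the side of the threshold, 20 kept the direction and passed it, and 2 turned the direction. Both turned values were those of Slc7a13 in injured tubule, which ranged from -2.11 (without control 3) to 0.69 (without control 1) with 1 library left out and was 0.35 without both libraries numbered 1. The number of transporters called, 0 in each of the 10 classes, became 1 without the low-count filter in S1, S2, injured tubule, thick ascending limb, distal convoluted tubule and connecting tubule and 2 in intercalated cells, Slc7a13 in each and Slc6a18 as the other in intercalated cells. Over all genes, the calls without the filter were 51 of 20893 in S1, 188 of 21021 in S2 and 257 of 19631 in injured tubule. They were 154 of 20724 in thick ascending limb, 56 of 18840 in distal convoluted tubule, 55 of 17073 in connecting tubule and 120 of 19386 in intercalated cells. With the replicate number as a block the number of transporters called became 1 in S1, thick ascending limb, connecting tubule and intercalated cells, Slc7a13 each time. In S1 it differed by -1.47 (adjusted p = 0.0427 in edgeR's quasi-likelihood test), as 1 of 18 transporters beside 36 of 7420 genes. In connecting tubule it differed by -1.505 (adjusted p = 0.0138), as 1 of 11 beside 56 of 2695. The numbers were not shown to pair libraries in S1 or connecting tubule. The block changed no other call of a transporter. With DESeq2 the number became 1 in intercalated cells (Slc7a13), as 1 of 18 beside 13 of 5629 genes. Without both libraries numbered 1 it became 1 there too (Slc6a19 at -2.52, adjusted p = 0.0465 in edgeR's quasi-likelihood test), as 1 of 15 beside 53 of 4776. Leaving out 1 library gave 0 to 1 called transporters in injured tubule and for the contrasts S3 minus S1 and S3 minus S2, and 0 in the other classes. For S3 minus S1 the count was also 1 without the filter, as 1 of 40 transporters beside 31 of 23339 genes. In injured tubule, leaving out control 1 or 3 leaves 1 control library. With 1 library left out, 20 of the 37 pairs gave at least 1 value over 1.5 times above or below that with all libraries. The cause of these changes was not tested. Subtracting the expected proximal RNA moved the summed level in controls and knockouts from 1731 and 1266 CPM to 635 and 706 in thick ascending limb, from 1481 and 1216 to 550.2 and 725 in distal convoluted tubule, from 1774 and 1222 to 706 and 762 in connecting tubule, from 1381 and 1217 to 515 and 677 in principal cells and from 2177 and 1602 to 488 and 607 in intercalated cells. In these sums a gene below its expected level was counted as 0. Over all genes, 0 to 12 were called per class, against 4 to 57 by DESeq2, 38 to 257 without the filter, 8 to 157 with the block and 1 to 53 without both libraries numbered 1. Keeping doublets gave no class between S2 and S3, and left 3 transporters below and 4 above all 3 segments in injured tubule, against 2 and 6. Depth limits injured tubule most of the 10 classes, at 12.7 CPM for 3 counts over the controls, followed by principal cells and connecting tubule at 6.06 and 5.05 CPM.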

Other observations

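Some transporters were counted in nuclei outside the 10 classes compared. Slc36a4, a carrier of proline and tryptophan, stood in podocytes at 78.9, 61.4 and 111 CPM in controls and 63.4, 16.5 and 105 in knockouts, against 0.989 and 0.268 expected from free proximal RNA. Slc38a4, a carrier of neutral and cationic amino acids, stood there at 39.5, 20.5 and 47.7 CPM in controls and 37.3, 16.5 and 28.5 in knockouts. The libraries overlapped for both genes. Slc38a11 had 36 of its 92 UMIs in 1 cluster of 171 nuclei of the mesangial, mural and fibroblast class, 86.6 CPM. In the thin limb, a tubule class left out of the comparisons, Slc1a2 stood at 82.2 CPM and Slc7a1 at 114 CPM over 185 nuclei. In cycling nuclei, which came almost all from knockouts, the 43 genes summed to 2519 ± 115 CPM in the knockout libraries (SD, n = 3), against 2212 ± 132 in their injured tubule.

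In intercalated cells the 43 genes summed to 1586 ± 338 CPM in type A and 2365 ± 190 in type B of the controls, without overlap between the types, and to 1474 ± 297 and 1683 ± 212 in the knockouts, with overlap. Expected proximal RNA was not subtracted from these sums, and no expected level is given for either type. In the whole intercalated class the proximal reference genes stood at 39.9 to 65.0% of their proximal level in controls and 20.5 to 38.4% in knockouts. Subtraction there moved the sums from 2177 to 488 CPM in controls and from 1602 to 607 in knockouts. The difference between the types was not tested, nor was the part of free proximal RNA in it.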
